A study of Mus musculus with 20 samples.

Results

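The mRNA of the whole hippocampus was compared between mice carrying a sponge for miR-124 and mice carrying GFP alone. Adult male C57BL/6 mice were injected in both hippocampi with an AAV5 vector. Of the 6 mice, 3 received AAV5-GFP.miR124sp (miR124sp, mice 14, 2 and 9) and 3 received AAV5-GFP (GFP, mice 15, 20 and 8). In both vectors the transgene was driven by the synapsin promoter, which is active in neurons. The RNA was taken from frozen hippocampal tissue, so that glia, vessels and neurons without vector are part of every sample. These 6 libraries are the miR-124 mRNA experiment, out of 20 libraries in the series. The age of the mice in weeks and the time between injection and dissection of these samples are not given in the sources used here. Another 3 AAV5-GFP.miR125sp mice and 3 AAV5-GFP mice of their own form the miR-125 experiment, and they are used here only beside the results. The values are raw counts per RefSeq transcript, summed per gene and divided by the total of each mouse (CPM), in the order in which the mice are listed above.

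miR-124 is one of the most abundant miRNAs of mature neurons, where it is known for keeping genes of other cell types and of progenitors low. A miRNA loaded into an argonaute protein binds short complementary sites, mostly in 3′UTRs, and lowers the stability or the translation of the mRNA. A sponge is a transcript with many such sites that takes up the miRNA, so that an inhibited miRNA would leave its targets higher. The comparison asks which mRNAs differ in level when the miR-124 sponge is expressed.

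Total counts lay between 13064658 and 16957240 in the miR124sp mice and between 17886687 and 27833176 in the GFP mice, and in the other 6 mice of the mRNA-seq between 6950522 and 25831488. All 3 GFP libraries and that of miR124sp mouse 14 carry a mark of unknown meaning in the column header. The libraries of miR124sp mice 2 and 9 lack it, so that whatever it stands for is partly confounded with the sponge. The 3 GFP mice of the miR-124 experiment stood apart from the 9 other mice in many genes. They lay above all 9 in 1854 genes (14.3% of 12967) and below all 9 in 1329 (10.2%), whereas the 3 miR124sp mice lay above the 9 other mice in 331 (2.55%) and below them in 244 (1.88%). A difference that the GFP mice of this experiment alone carry and an effect of the sponge cannot be told apart within the 6 mice. For this reason values against the 3 GFP mice of the miR-125 experiment (mice 14, 15 and 4) stand beside the results, although those mice belong to another experiment and both comparisons share the miR124sp mice. On the first principal component of the 6 mice (57.0% of the variance) miR124sp mice 14 and 2 lay at 34.2 and 34.5, miR124sp mouse 9 at -2.80, and the GFP mice between -26.95 and -16.9. The excitatory neuron gene Slc17a7 had 1807, 1955 and 2249 CPM in miR124sp mice, against 1724, 1903 and 1913 in GFP mice, and genes of astrocytes, oligodendrocytes and microglia were measured in every mouse as well, although the labels name hippocampal neurons as the cell type. Vector transcripts were not analysed here, and miR-124 itself is too short for this assay.

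Of 12967 genes that passed the filter on low counts, 1628 (12.6%) were higher and 1388 (10.7%) were lower in miR124sp than in GFP mice at an adjusted p below 0.05 (edgeR quasi-likelihood test, Benjamini-Hochberg). The median log2 fold change was 0.44 among the genes called higher and -0.44 among those called lower, 145 genes rose and 116 fell more than the 2-fold mark, and the smallest adjusted p was 0.00368. The median over all tested genes was -0.01. In 2355 genes (18.2%) every miR124sp mouse was above every GFP mouse, and in 2956 (22.8%) every one was below. Against the GFP mice of the miR-125 experiment the same miR124sp mice had 114 genes higher (0.917% of 12432) and 150 lower (1.21%). The count depended on single mice. Without GFP mouse 15 there were 474 higher and 527 lower genes, without miR124sp mouse 2 there were 537 and 519, and without miR124sp mouse 14 there were 692 and 675. In bulk tissue, fewer cells of a type and less RNA per cell cannot be told apart, which holds for every gene below. Fold changes are given as log2 ± the standard error of the fit (n = 3 mice each), with miR124sp over GFP.

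Sites that pair with the miR-124 seed, the miRNA bases 2 to 8, read GTGCCTT in the sense strand of the mRNA. They are shown for several of the literature targets described next, namely Nr4a1 to Sox9, which passed the test, and Ctdsp1 and Vamp3, which hold several sites and did not. Egr1 and Nr3c1, which also passed, are not shown, and this says nothing on whether they hold a site. Each line gives the site in capitals with the bases around it, 5′ to 3′, from the longest annotated 3′UTR of the gene in GENCODE M1 on NCBIM37 (mm9), and every site shown lies within 1 exon.
Nr4a1: tgtcacccatGTGCCTTtaagcctata
Rhog site 1: cccaccaattGTGCCTTggcgccttgt
Rhog site 2: gcccccagctGTGCCTTaaggactaat
Rock2: agggcagagaGTGCCTTtctgtctgaa
Gsk3b: atagtttggaGTGCCTTcgcttccatg
Sos1: gctgccaaatGTGCCTTtaattaaaaa
Lamc1 site 1: tgaggcctcgGTGCCTTgacacaaaga
Lamc1 site 2: ccttttcaatGTGCCTTcactttagct
Sp1: gaatcacactGTGCCTTctccactagg
Sox9: aacattcactGTGCCTTtgcctgcttg
Ctdsp1 site 1: ccctgtgtcaGTGCCTTcaaacttctt
Ctdsp1 site 2: ttgctgccccGTGCCTTggattcccca
Ctdsp1 site 3: ggacacccaaGTGCCTTtcatagaacc
Ctdsp1 site 4: cagatgtcacGTGCCTTcagagtatca
Ctdsp1 site 5: tcccaattaaGTGCCTTctctgtgacc
Vamp3 site 1: cctagaaaatGTGCCTTtgtttttcat
Vamp3 site 2: attttgcacaGTGCCTTtacagatttc
Vamp3 site 3: atagcagggtGTGCCTTattttgatag

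The Nr4a1 window is chr15:101104725-101104751 on the plus strand, and its site starts at base 52 of a 3′UTR of 540 bases. The Rhog windows are chr7:109388120-109388146 and chr7:109388091-109388117 on the minus strand, with sites at bases 47 and 76 of 546. Rock2 has its window at chr12:16994825-16994851, Gsk3b at chr16:38243629-38243655, Sp1 at chr15:102266163-102266189 and Sox9 at chr11:112647828-112647854, all on the plus strand. Sos1 has its window at chr17:80793774-80793800, Lamc1 at chr1:155068533-155068559 and chr1:155066181-155066207, and Vamp3 at chr4:150422975-150423001, chr4:150422910-150422936 and chr4:150422662-150422688, all on the minus strand. The Ctdsp1 windows, on the plus strand, are chr1:74442328-74442354, chr1:74442488-74442514, chr1:74442545-74442571, chr1:74443174-74443200 and chr1:74443495-74443521. Rhog site 2 and Vamp3 site 3 are followed by an A, which in general makes a site stronger. The letters GTGCCTT occur in 12.2% of all annotated 3′UTRs, so that a match is a description and not a proof of targeting.

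Among 33 tested genes of a list of 41 that the literature names as targets of miR-124, 9 were higher in miR124sp mice (Nr4a1, Egr1, Rhog, Rock2, Gsk3b, Sos1, Nr3c1, Lamc1 and Sp1), 1 was lower (Sox9) and 23 did not pass the test. The median log2 fold change of the list was 0.00, beside -0.01 over all tested genes, of which 12.6% were higher and 10.7% lower. The 2 largest changes belonged to Nr4a1 and Egr1, transcription factors that neurons induce with activity. Nr4a1, an orphan nuclear receptor, had 81.4, 93.9 and 75.9 CPM in miR124sp mice, against 44.4, 51.4 and 37.7 in GFP mice. The groups did not overlap and the change was 0.95 ± 0.12 (edgeR adjusted p = 0.00368). The GFP mice of the miR-125 experiment had 124, 89.7 and 77.8 CPM, overlapping the miR124sp mice, and against them the change was -0.20 (adjusted p = 0.5005). Egr1 had 219.8, 220.3 and 159.7 CPM in miR124sp mice, against 96.8, 119 and 104 in GFP mice, a change of 0.95 ± 0.13 (adjusted p = 0.00393). In the GFP mice of the miR-125 experiment it had 284, 226 and 234 CPM, above every miR124sp mouse.

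Rhog, a small GTPase that shapes the actin cytoskeleton, differed from those genes in that it was also low in the mice of the miR-125 experiment. It had 43.4, 38.0 and 33.8 CPM in miR124sp mice, against 29.8, 28.6 and 26.4 in GFP mice and 27.6, 22.7 and 29.1 in the GFP mice of the miR-125 experiment. All 3 miR124sp mice lay above all 9 other mice. The change was 0.48 ± 0.10 (adjusted p = 0.0101) within the experiment and 0.52 ± 0.12 (adjusted p = 0.0591) against the other GFP mice, where it did not pass. Slc16a1, a lactate transporter, was also above all 9 other mice with 109.8, 98.1 and 102 CPM in miR124sp mice, against 91.2, 96.3 and 95.7 in GFP mice, but its change of 0.17 ± 0.071 did not pass (adjusted p = 0.111).

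The kinases Rock2 and Gsk3b and the Ras activator Sos1 were higher in miR124sp mice, at levels like those of the GFP mice of the miR-125 experiment. Rock2 had 477, 517 and 445 CPM in miR124sp mice, against 337, 355 and 389 in GFP mice (0.45 ± 0.094, adjusted p = 0.0101), and 481, 479 and 512 in the other GFP mice. Gsk3b had 501, 523 and 448 CPM in miR124sp mice, against 357, 374 and 392 in GFP mice (0.43 ± 0.089, adjusted p = 0.00982). Sos1 had 143, 142 and 138 CPM in miR124sp mice, against 107, 107 and 117 in GFP mice (0.40 ± 0.070, adjusted p = 0.00595). The groups did not overlap in any of the 3 genes, and against the other GFP mice their changes were -0.040, -0.043 and -0.045. The laminin chain gene Lamc1 (0.36 ± 0.088, adjusted p = 0.0183), the glucocorticoid receptor Nr3c1 (0.35 ± 0.10, adjusted p = 0.0323) and the general transcription factor Sp1 (0.24 ± 0.071, adjusted p = 0.0363) rose less. Sox9, a glial transcription factor with 1 site, fell to 87.8, 92.7 and 94.8 CPM in miR124sp mice, against 114, 119 and 109 in GFP mice (-0.27 ± 0.067, adjusted p = 0.0187).

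Without GFP mouse 15, Rock2, Gsk3b, Lamc1, Nr3c1, Sp1 and Sox9 no longer passed (edgeR adjusted p = 0.0612 to 0.158), and without miR124sp mouse 2 the same 6 genes did not pass (adjusted p = 0.0574 to 0.137). Without miR124sp mouse 14, Lamc1, Nr3c1, Sp1 and Sox9 did not pass (adjusted p = 0.0798 to 0.139), without GFP mouse 8 Lamc1, Nr3c1 and Sp1 did not (0.0588 to 0.0902), and without GFP mouse 20 Nr3c1 and Sp1 did not (0.0681 and 0.0658). Nr4a1, Egr1, Rhog and Sos1 passed when any 1 mouse was left out.

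Some literature targets with several sites did not pass the test. Ctdsp1, a phosphatase of the REST repressor complex with 5 sites in its 3′UTR, had 44.4, 41.1 and 43.9 CPM in miR124sp mice, against 51.1, 55.8 and 47.5 in GFP mice (-0.22 ± 0.081, adjusted p = 0.0824). Vamp3, a vesicle fusion protein with 3 sites, had 44.7, 45.0 and 44.8 CPM in miR124sp mice, against 59.1, 52.6 and 47.9 in GFP mice (-0.21 ± 0.081, adjusted p = 0.0925). The scaffold Iqgap1, with 2 sites, changed by 0.054 ± 0.090 and the integrin subunit Itgb1, with 1 site, by 0.040 ± 0.075, neither past the threshold (adjusted p = 0.698 and 0.733). Rest, the repressor of neuronal genes in other cells, had 9.65, 8.17 and 10.2 CPM in miR124sp mice, against 10.8, 9.14 and 8.76 in GFP mice. Against the GFP mice of the miR-125 experiment none of the 33 genes passed, with a median of -0.04.

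**Figure D1:**
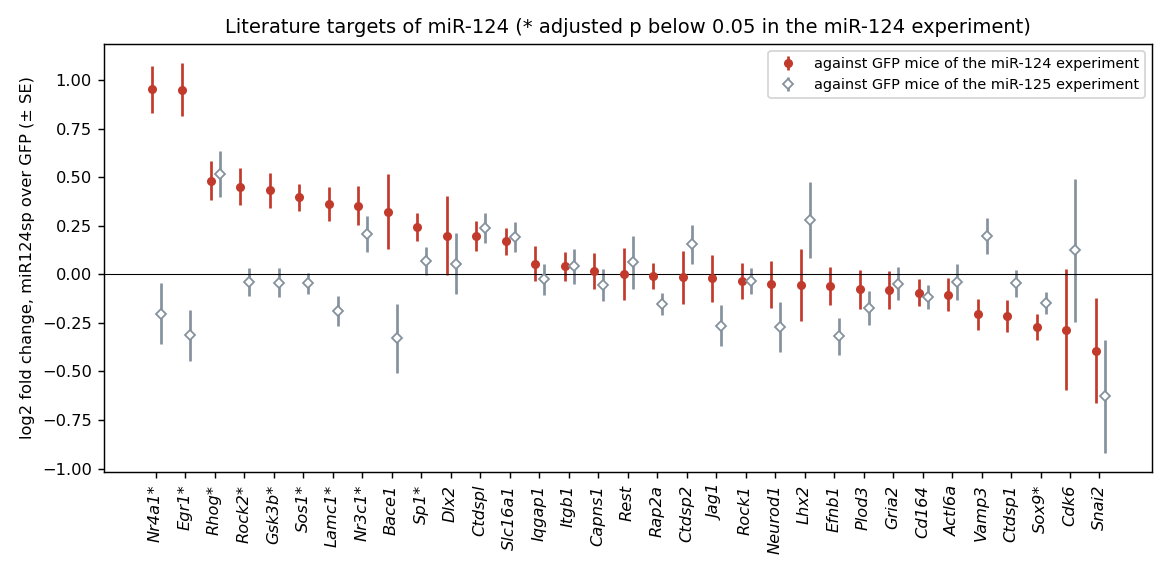
Log2 fold change ± SE of the 33 tested literature targets of miR-124, for miR124sp mice against the GFP mice of the same experiment (red circles) and against the GFP mice of the miR-125 experiment (open grey diamonds), n = 3 mice each. Nr4a1 and Egr1 lie at 0.95 with the first and at -0.20 and -0.31 with the second, while Rhog lies at 0.48 and 0.52.

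Over all genes with an annotated 3′UTR, genes with a seed match were slightly higher than those without, and within groups of like 3′UTR length the difference was smaller than the spread between mice. The 1764 tested genes with a match had a median log2 fold change of 0.05, against -0.01 in the 10159 without one, and 291 of them (16.5%) were called higher and 115 (6.52%) lower, against 12.4% and 11.3% of the genes without a match. Genes with a match had longer 3′UTRs, with a median of 2107 bases against 1019. Within 10 bins of 3′UTR length the difference was -0.01, beside 0.02 for miR-125, 0.01 for let-7, 0.02 for miR-9, -0.02 for miR-21 and 0.02 for miR-292, a miRNA not present in the brain. In single miR124sp mice it was 0.01, -0.02 and 0.01 (SD 0.018). The median was 0.05 in 1498 genes with 1 match, 0.06 in 223 genes with a pair of matches and 0.02 in 43 genes with 3 or more (edgeR log2 fold change). Of these, 239, 46 and 6 genes were called higher and 100, 13 and 2 lower, and their 3′UTRs had median lengths of 1990.5, 2755 and 3728 bases. The counts by number of sites were not compared within bins of length.

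The AGO2 RIP-seq gives a second list of candidate targets that used none of the 6 mice. The libraries compared there carried GFP-AGO2 with the miR-124 sponge (libraries 3 and 4) or with a sponge for miR-292 (libraries 5 and 6). The sham libraries were 7 and 8. Each library was a pool of lysates, and each of these groups has fewer libraries than the 3 of an mRNA group. By edgeR, 284 of the 8203 3′UTRs (3.46%) were lower and 418 (5.10%) higher with the miR-124 than with the miR-292 sponge. Of 8203 3′UTRs, 2230 were enriched with AGO2 more than 4-fold over sham, and the 300 of these with the largest fall in rank under the miR-124 sponge correspond to 265 tested genes. Of these 265, 43 (16.2%) were higher in the mRNA of miR124sp mice, 22 (8.30%) were lower and 200 did not pass, against 15.8% higher and 11.6% lower in the 6278 other genes with a RIP value. The medians were 0.07 and 0.03, a difference of 0.04 that was 0.03, 0.03 and 0.02 in the single miR124sp mice. Against the GFP mice of the miR-125 experiment they were -0.04 in the list and -0.01 in the other genes. A seed match was present in 58 of the 265 genes, and in 484 of all 1936 tested genes enriched more than 4-fold, from which the 265 were drawn. The 284 3′UTRs lower by edgeR correspond to 257 tested genes, of which 59 (22.96%) were higher and 8 (3.11%) lower in the mRNA of miR124sp mice, against 15.6% and 11.8% of the 6286 other genes. Their median was 0.095, against 0.02 in the others. After the median of genes of like transcript length was subtracted the medians were 0.03 and 0.01, and against the GFP mice of the miR-125 experiment they were -0.04 and -0.01.

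Members of the list of 300 falls in rank that changed in mRNA came from several functions. Membership was a matter of rank and not of a test. Of the members named in this paragraph, only Nr4a1 and Ago1 hold a miR-124 seed match in the longest annotated 3′UTR. Fos, Ier2, Dusp1, Junb, Kcnab3, Gpr37, Slc44a1, Ciao2a and Gap43 hold none. In the edgeR test of the RIP-seq Nr4a1, Fos, Ier2 and Dusp1 were lower (adjusted p = 0.000659 to 0.0225). Of the other members named here, Junb, Kcnab3, Gpr37, Ago1, Ciao2a and Gap43 did not pass it (adjusted p = 0.0583 to 0.169). Nr4a1 fell in AGO2 rank to 5634 of 8203 with the miR-124 sponge, against 7758 with the miR-292 sponge. Besides Nr4a1, the immediate early genes Fos, Ier2, Dusp1 and Junb were in the list and rose in mRNA, by 0.69, 0.73, 0.62 and 0.38. Kcnab3, an auxiliary subunit of potassium channels, had 123, 107 and 52.8 CPM in miR124sp mice, against 35.4, 31.5 and 31.9 in GFP mice (1.56 ± 0.25, adjusted p = 0.00478) and 41.4, 42.5 and 39.5 in the other GFP mice. Gpr37, a receptor found in oligodendrocytes, had 203, 176 and 161 CPM in miR124sp mice, against 118, 108 and 120.0 in GFP mice (0.68 ± 0.093, adjusted p = 0.00379). Slc44a1, a choline transporter, rose by 0.57 (adjusted p = 0.00425), and both Gpr37 and Slc44a1 lay above all 9 other mice. The 3′UTRs of Slc44a1 went opposite ways in the RIP-seq. With the miR-124 sponge the listed 3′UTR fell in rank from 7509 to 6362 (edgeR log2 fold change -1.06, adjusted p = 0.0212). Another 3′UTR of the gene rose from 1089 to 6354 (1.82, edgeR adjusted p = 0.0401). Ago1, an argonaute gene with 1 seed match, rose by 0.23 ± 0.072 (adjusted p = 0.0431) and passed with GFP mouse 20 left out, but not with any other of the 6 mice left out (adjusted p = 0.0633 to 0.188). Lower in mRNA were Ciao2a, which takes part in iron-sulphur protein assembly, with 22.3, 23.9 and 24.8 CPM in miR124sp mice, against 39.4, 38.1 and 34.5 in GFP mice (-0.62 ± 0.081), and Gap43, a growth cone protein, with a change of -0.42 ± 0.071 (adjusted p = 0.00537). The other GFP mice had 26.1, 22.2 and 26.0 CPM of Ciao2a, level with the miR124sp mice.

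The 12 largest increases, among called genes with a mean of at least 1 CPM and no overlap between the groups, were in genes of different functions. Syt2, a calcium sensor for fast transmitter release, had 73.8, 68.5 and 27.2 CPM in miR124sp mice, against 9.84, 8.23 and 11.1 in GFP mice (2.59 ± 0.32, adjusted p = 0.00368). Scn4b, an auxiliary subunit of voltage-gated sodium channels with 1 seed match, had 142, 119.5 and 73.4 CPM in miR124sp mice, against 23.6, 26.7 and 25.2 in GFP mice and 51.4, 41.7 and 34.6 in the other GFP mice. Scn4b lay above all 9 other mice and changed by 2.19 ± 0.21 within the experiment (adjusted p = 0.00368) and by 1.42 ± 0.23 against the other GFP mice (adjusted p = 0.0273). In the same way, the Wnt ligand gene Wnt10a had 16.4, 15.1 and 8.34 CPM in miR124sp mice, against 3.23, 3.23 and 3.11 in GFP mice and 4.63, 5.37 and 5.35 in the other GFP mice (2.10 ± 0.24, adjusted p = 0.00368). It passed against both sets of GFP mice (1.36, adjusted p = 0.0358 for the second), and so did Dkkl1, a gene related to the Dickkopf Wnt inhibitors (2.16 and 2.25, adjusted p = 0.00431 and 0.0358). Tshz2, a transcription factor, had 429.6, 435 and 139 CPM in miR124sp mice, against 102, 96.3 and 66.1 in GFP mice (1.97 ± 0.37, adjusted p = 0.00699).

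In Syt2, Scn4b, Wnt10a and Tshz2 alike, miR124sp mouse 9 lay between the other 2 miR124sp mice and the GFP mice of its experiment. The remaining genes of the 12 largest increases were the ankyrin repeat genes Sowahb (2.25) and Ankrd34c (2.01), the keratin gene Krt80 (2.27), the neuropeptide S receptor Npsr1 (2.01), the osteocalcin-related gene Bglap3 (1.99), Teddm3 (1.96) and A630075F10Rik (2.18), with adjusted p between 0.00479 and 0.0473. Krt80, Bglap3 and Teddm3 were below 5 CPM in every mouse of the experiment. Without miR124sp mouse 2 or GFP mouse 15, Krt80, Bglap3, Teddm3 and A630075F10Rik did not pass (edgeR adjusted p = 0.0505 to 0.0883), without miR124sp mouse 14 Krt80, Bglap3 and Teddm3 did not (0.0557 to 0.248), and without GFP mouse 20 or 8 Bglap3 did not (0.103 and 0.105).

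The largest decreases, chosen by the same rule, were in genes of low level. Trh, the precursor of thyrotropin-releasing hormone, had 0.477, 0.346 and 0.927 CPM in miR124sp mice, against 16.2, 5.00 and 11.5 in GFP mice (-4.21 ± 0.50, adjusted p = 0.00368), but the other GFP mice had 0.421, 1.45 and 1.95 CPM. Dio3, the deiodinase that inactivates thyroid hormone, had 0.536, 1.38 and 2.09 CPM in miR124sp mice, against 10.5, 10.6 and 11.3 in GFP mice and 5.89, 12.5 and 5.86 in the other GFP mice. Dio3 lay below all 9 other mice, with changes of -3.02 ± 0.31 (adjusted p = 0.00368) and -2.60 ± 0.45 (adjusted p = 0.0332). Dcn, the small proteoglycan decorin, had 0.238, 0.485 and 0.927 CPM in miR124sp mice, against 2.72, 2.83 and 2.66 in GFP mice and 2.81, 4.21 and 3.20 in the other GFP mice (-2.32 ± 0.35 and -2.66 ± 0.39, adjusted p = 0.00431 and 0.0229). The procollagen protease gene Adamts14 behaved alike, with 0.596, 0.415 and 0.927 CPM in miR124sp mice, against 2.69, 2.73 and 2.99 in GFP mice (-2.08 ± 0.28, adjusted p = 0.00378), and -2.05 against the other GFP mice (adjusted p = 0.0270).

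The insulin receptor substrate gene Irs4 (-3.40), Baiap3, which acts in vesicle release (-2.18), and Arhgap36 (-2.12) fell together with Trh, and Ccdc42 (-2.10), Mapk15 (-2.10) and Ttll6 (-2.05) are genes of cilia and sperm tails. The small nucleolar RNAs Snord68 and Snord49a (-2.76 and -2.58) lie inside host genes, and their reads cannot be told apart from those of unspliced host RNA. Snord68 had 0.715, 0 and 0 CPM in miR124sp mice, against 1.52, 1.67 and 2.60 in GFP mice. Snord68, Ccdc42, Mapk15 and Ttll6 did not pass without miR124sp mouse 2 or without GFP mouse 15 (edgeR adjusted p = 0.0602 to 0.102). Mapk15 and Ttll6 also did not pass without miR124sp mouse 14 (0.0888 and 0.0865), Snord68 and Mapk15 without GFP mouse 20 (0.0536 and 0.0604), and Snord68, Mapk15 and Ttll6 without GFP mouse 8 (0.0527 to 0.0657).

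**Figure D2:**
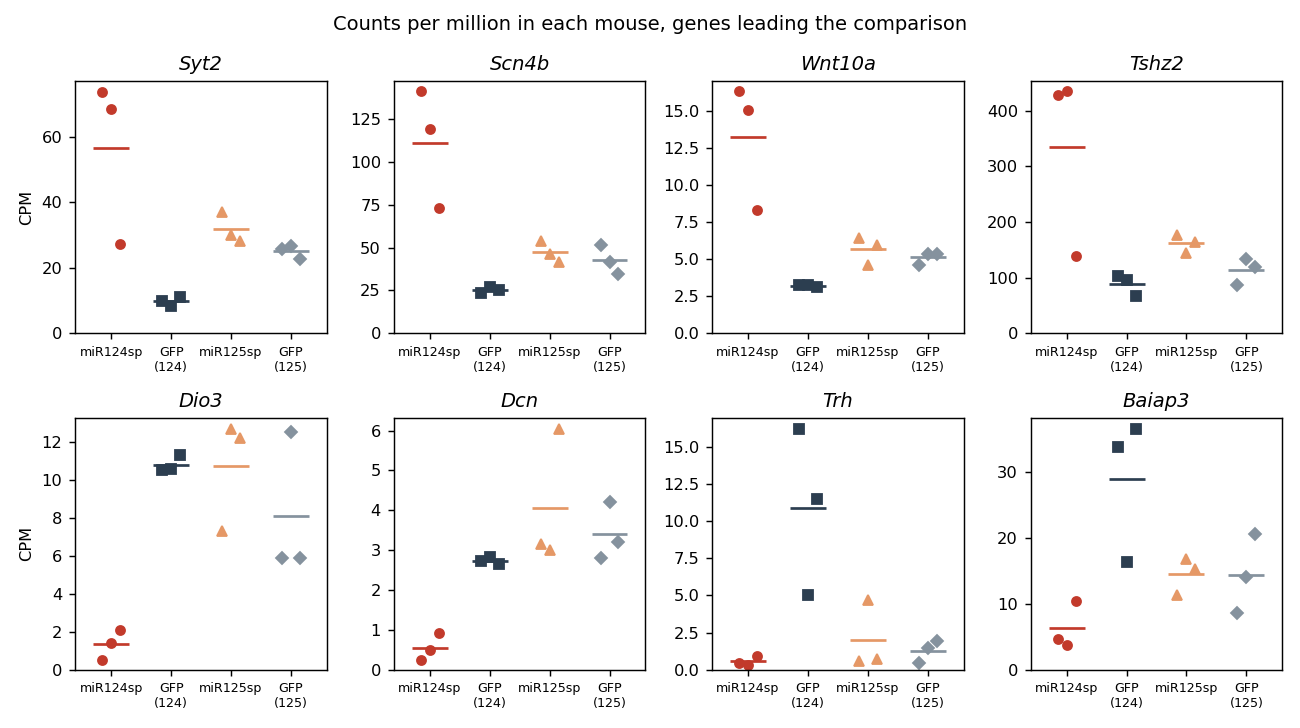
CPM of Syt2, Scn4b, Wnt10a and Tshz2 (top) and of Dio3, Dcn, Trh and Baiap3 (bottom) in each mouse, with the group mean as a line, for miR124sp and GFP mice and for the miR125sp and GFP mice of the miR-125 experiment. The 3 miR124sp mice are apart from all other mice in Scn4b, Wnt10a, Dio3 and Dcn, whereas in Trh the GFP mice of the miR-124 experiment are apart.

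Genes of oligodendrocytes and myelin were higher in miR124sp mice. These cells wrap axons, and the synapsin promoter of the vectors is meant for neurons. Of 17 tested genes 13 rose and none fell, with a median log2 fold change of 0.51, whereas 12.6% of all tested genes were higher and 10.7% lower. The 3 miR124sp mice lay above all 9 other mice in 13 genes of the list, beside 2.55% of all tested genes. Against the GFP mice of the miR-125 experiment 9 rose and none fell, with a median of 0.63, and with any 1 of the 6 mice left out between 10 and 14 rose. Mag, the myelin-associated glycoprotein, had 361, 275 and 248 CPM in miR124sp mice, against 180.3, 166 and 169 in GFP mice and 213, 144 and 199 in the other GFP mice (0.82 ± 0.12, adjusted p = 0.00431). Cldn11, a tight junction protein of myelin, had 328, 280.3 and 247 CPM in miR124sp mice, against 179, 166 and 162 in GFP mice and 201, 123 and 171 in the other GFP mice (0.79 ± 0.10, adjusted p = 0.00368). Cnp, an enzyme of the myelin sheath, had 43.0, 33.2 and 34.8 CPM in miR124sp mice, against 24.4, 19.1 and 19.3 in GFP mice (0.86 ± 0.12, adjusted p = 0.00403).

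Mouse 14 was the highest miR124sp mouse in all 3 genes. Ugt8a, which makes the myelin lipid galactosylceramide, had 144, 128 and 119 CPM in miR124sp mice, against 93.7, 85.9 and 86.8 in GFP mice (0.59 ± 0.082, adjusted p = 0.00393). Mbp, the myelin basic protein, did not pass with 96.6, 95.9 and 86.9 CPM in miR124sp mice, against 86.3, 98.2 and 86.2 in GFP mice (0.086 ± 0.083, adjusted p = 0.482), and its counts are spread over 8 RefSeq transcripts. Olig1, a transcription factor of the lineage, had 208, 201 and 200.2 CPM in miR124sp mice, against 189.8, 200.3 and 174 in GFP mice (0.15 ± 0.072, adjusted p = 0.155). None of Mag, Cldn11, Cnp and Ugt8a holds a miR-124 seed match in its 3′UTR. The summed level of the 17 genes was 2646, 2163 and 2057 CPM in miR124sp mice, against 1672, 1586 and 1494 in GFP mice and 1282 to 1707 in the 6 mice of the miR-125 experiment.

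**Figure D3:**
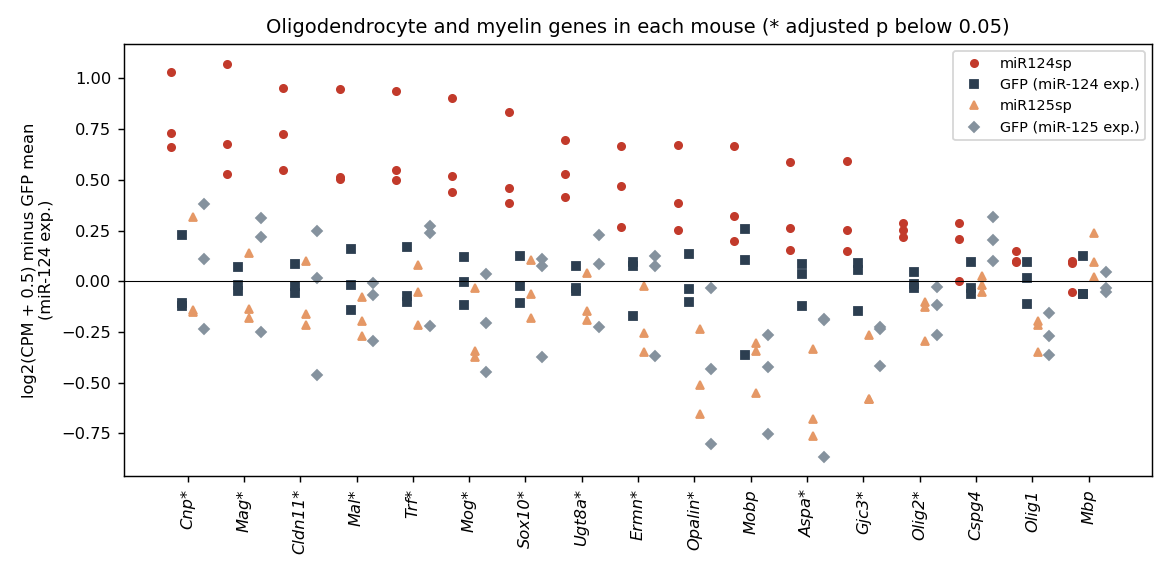
Level of 17 oligodendrocyte and myelin genes in each of 12 mice, as log2(CPM + 0.5) minus the mean of the 3 GFP mice of the miR-124 experiment, with genes ordered by the miR124sp mean. In 13 genes the 3 miR124sp mice (red) lie above all 9 other mice, and Mbp is among the 4 in which they do not.

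Immediate early genes, which neurons switch on within minutes of activity, were higher in miR124sp mice than in GFP mice in 14 of 35 cases and lower in none, with a median of 0.31. Beside this stand 12.6% higher and 10.7% lower among all tested genes. Ier5, a stress and growth response gene, had 127, 144 and 87.4 CPM in miR124sp mice, against 58.5, 51.9 and 60.1 in GFP mice (1.115 ± 0.16, adjusted p = 0.00404). Fos had 11.6, 17.9 and 12.8 CPM in miR124sp mice, against 8.42, 9.29 and 9.27 in GFP mice (0.69 ± 0.17, adjusted p = 0.0180), yet 35.5, 36.7 and 26.9 in the other GFP mice. Relative to those mice Fos was lower, at -1.21 ± 0.18 (adjusted p = 0.0233). The phosphatase Dusp1 had 26.8, 31.5 and 27.9 CPM in miR124sp mice, against 19.1, 17.2 and 21.6 in GFP mice (0.62 ± 0.11, adjusted p = 0.00617), and Jun, at 129, 173 and 208 CPM against 139, 153 and 173 in GFP mice, overlapped between the groups. For 11 of the 35 genes the GFP mice of the miR-124 experiment lay below all 9 other mice, while the miR124sp mice lay above all 9 in 1 (Arl4d). The shares over all tested genes were 10.2% and 2.55%. Against the other GFP mice 0 genes were higher and 1 was lower (edgeR), with a median of -0.22. Without miR124sp mouse 2 there were 7 of the 35 higher and without GFP mouse 15 there were 8, and Fos and Junb passed in neither case (edgeR adjusted p = 0.0658 to 0.124). Junb did not pass without GFP mouse 20 (0.0854), and Arl4d did not without miR124sp mouse 14 or 2 (0.0537 and 0.0590).

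Many ion channel genes were higher in miR124sp mice within the experiment. Of 39 potassium channel genes 22 were higher and 1 lower (median 0.42), and of 21 calcium and sodium channel genes 12 were higher and 1 lower (median 0.44). Over all tested genes 12.6% were higher and 10.7% lower, the shares to set beside each list count below. Kcna1, a Kv1 channel of axons, had 463, 452 and 442 CPM in miR124sp mice, against 260.3, 264 and 318 in GFP mice (0.73 ± 0.095, adjusted p = 0.00368) and 444, 385 and 414 in the other GFP mice. Kcnh7, a channel of the ERG type, had 49.9, 50.5 and 26.1 CPM in miR124sp mice, against 16.1, 14.0 and 16.0 in GFP mice (1.50 ± 0.22, adjusted p = 0.00412). Kcnc2, a Kv3 channel of fast-spiking cells, had 239, 230.4 and 227 CPM in miR124sp mice, against 175, 167 and 168 in GFP mice (0.49 ± 0.063, adjusted p = 0.00368). These 3 genes did not overlap between the groups, and each holds 1 seed match.

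The inward rectifier Kcnj4 had 148, 151 and 137 CPM in miR124sp mice, against 86.8, 82.0 and 107 in GFP mice and 105, 114 and 110.4 in the other GFP mice. It was above all 9 other mice and passed against both sets of GFP mice (0.70 and 0.40, adjusted p = 0.00431 and 0.0270). Scn1a, the pore-forming sodium channel of many interneurons, had 368, 361 and 248 CPM in miR124sp mice, against 169, 146 and 177 in GFP mice (1.03 ± 0.15, adjusted p = 0.00393), and Scn2b rose by 0.53 ± 0.094 (adjusted p = 0.00599). Compared with the other GFP mice, 2 potassium channel genes were higher and 2 lower, and 2 calcium and sodium channel genes were higher and 1 lower, with medians of 0.23 and 0.05. Without GFP mouse 15 the numbers higher were 12 of 39 and 6 of 21, and without miR124sp mouse 2 they were 14 and 6.

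Of 31 glutamate and GABA receptor genes 12 rose and 1 fell, with a median of 0.19. Grm2, a presynaptic metabotropic receptor, had 104, 102 and 81.4 CPM in miR124sp mice, against 48.1, 53.7 and 56.1 in GFP mice (0.91 ± 0.11, adjusted p = 0.00368). Grin2a, an NMDA receptor subunit, had 171, 189 and 184 CPM in miR124sp mice, against 113, 98.2 and 132 in GFP mice (0.71 ± 0.11, adjusted p = 0.00431). The obligatory NMDA subunit Grin1 had 52.2, 52.3 and 53.4 CPM in miR124sp mice, against 34.8, 40.2 and 36.7 in GFP mice and 41.7, 38.6 and 34.7 in the other GFP mice, above all 9 other mice (0.54 and 0.46, adjusted p = 0.00431 and 0.0346). Its 3 RefSeq transcripts make its level uncertain. The member that fell was Gabrg1, a GABA receptor subunit found mainly in glia and a few neurons, with 39.3, 41.8 and 41.6 CPM in miR124sp mice, against 81.0, 70.2 and 73.2 in GFP mice (-0.83 ± 0.074, adjusted p = 0.00368). Gabbr1, the most abundant member shown, changed by 0.15 ± 0.084 (adjusted p = 0.229). Compared with the other GFP mice, 2 of the 31 were higher and 1 lower, with a median of -0.03. The number of receptor genes higher was 7 without GFP mouse 15 and 7 without miR124sp mouse 2.

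Some genes of transmitter release and axon guidance were also higher in miR124sp mice within the experiment. Of 31 genes of synaptic vesicle release 11 rose and 1 fell (median 0.26), and of 51 axon guidance genes 12 rose and 2 fell (median 0.23). The vesicle protein gene Sv2a had 749, 704 and 602 CPM in miR124sp mice, against 415, 395 and 475 in GFP mice (0.72 ± 0.11, adjusted p = 0.00431). The synapsin gene Syn3 had 99.1, 96.8 and 62.3 CPM in miR124sp mice, against 40.8, 43.2 and 48.9 in GFP mice (1.00 ± 0.16, adjusted p = 0.00493). These 2 changes were 0.025 and 0.24 against the other GFP mice. Unc5b, a netrin receptor, had 86.7, 69.3 and 63.7 CPM in miR124sp mice, against 40.2, 36.4 and 41.3 in GFP mice (0.94 ± 0.11, adjusted p = 0.00368). The semaphorin genes Sema7a (0.76 ± 0.12), Sema6a (0.67 ± 0.094) and Sema3f (1.35 ± 0.23) were above all 9 other mice together with Unc5b, and Sema7a passed against the other GFP mice as well (0.58, adjusted p = 0.0332). Sema6a holds 3 seed matches. Set against the other GFP mice, 1 gene of vesicle release was higher and none lower (median 0.13), whereas of the axon guidance genes 2 were higher and 3 lower (median -0.06). Without GFP mouse 15, 5 genes of vesicle release and 6 of axon guidance were higher, and without miR124sp mouse 2 there were 6 and 6.

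The neurofilament genes Nefh (1.00 ± 0.13, adjusted p = 0.00368) and Nefm (0.81 ± 0.14, adjusted p = 0.00510) were among 7 of 21 neuronal marker genes that rose, with 2 that fell and a median of 0.26. Nefh had 172, 148 and 115 CPM in miR124sp mice, against 76.6, 75.7 and 71.8 in GFP mice and 117, 108 and 102 in the other GFP mice. Of 16 interneuron genes 6 rose and 1 fell (median 0.32), among them Gad1, which makes GABA (0.63 ± 0.13, adjusted p = 0.00926), and the secreted protein gene Reln (0.75 ± 0.11, adjusted p = 0.00393). In edgeR 0 interneuron genes were higher and 3 lower than in the other GFP mice (median -0.02), and 2 neuronal markers were higher and none lower (median 0.10). There were, without GFP mouse 15, 2 interneuron genes and 4 neuronal markers higher, without miR124sp mouse 2 there were 3 and 4, and without miR124sp mouse 14 there were 4 and 4. Of 53 clustered protocadherin genes, whose many isoforms give neurons their identity at the surface, 21 rose and 1 fell (median 0.41). Pcdhga2 had 22.6, 19.3 and 18.9 CPM in miR124sp mice, against 10.4, 10.3 and 14.4 in GFP mice and 19.8, 17.1 and 18.9 in the other GFP mice (0.84 ± 0.15, adjusted p = 0.00597), and Pcdhga9 rose by 0.70 ± 0.13 (adjusted p = 0.00705). Isoforms of the gamma cluster, to which Pcdhga2 and Pcdhga9 belong, share their last exons, so that reads cannot always be assigned to a single isoform. Against the other GFP mice 0 of the 53 were higher and 0 lower in the edgeR test, with a median of -0.03. The GFP mice of the miR-124 experiment lay below all 9 other mice in 23 of the 53, beside 10.2% of all tested genes. The count of 21 fell to 3 without GFP mouse 15 and to 3 without miR124sp mouse 2.

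**Figure D4:**
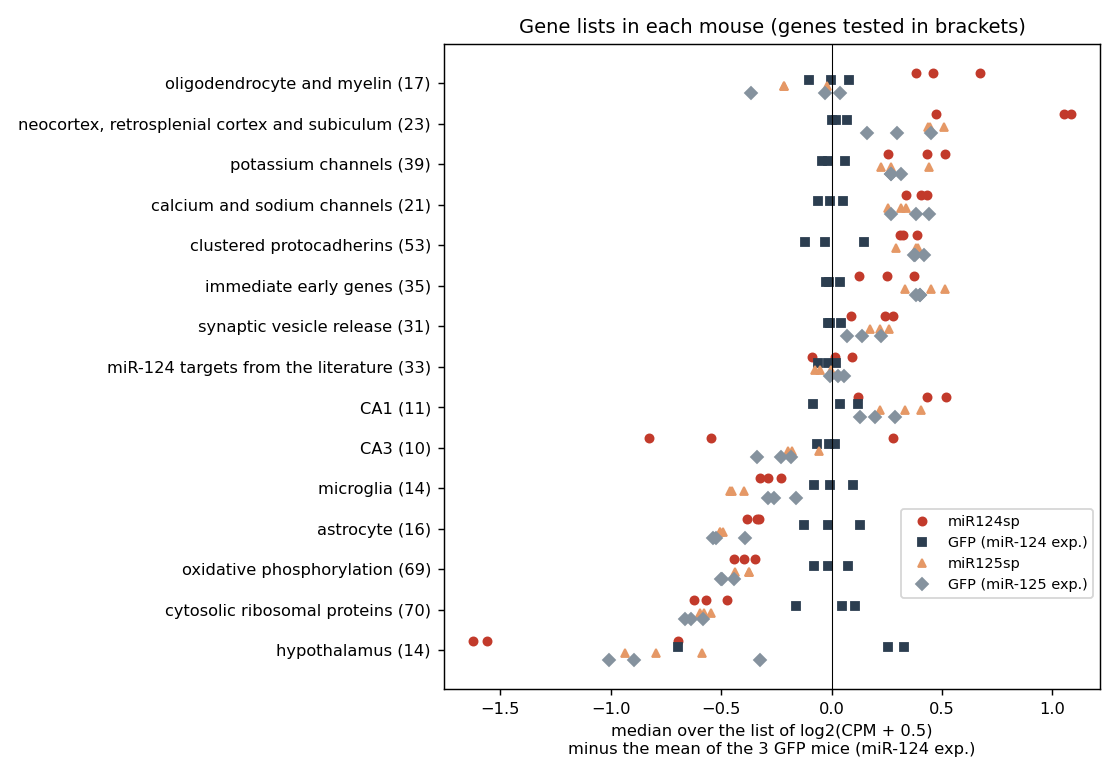
Median level of 15 gene lists in each of 12 mice, as log2(CPM + 0.5) minus the mean of the 3 GFP mice of the miR-124 experiment, with the number of tested genes in brackets. In the oligodendrocyte and myelin list the 3 miR124sp mice (red) stand to the right of the 9 others, whereas in the ribosomal, oxidative phosphorylation and astrocyte lists the GFP mice of the miR-124 experiment (dark squares) stand to the right of all others.

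Genes of the cytosolic ribosome were lower in miR124sp mice. Of 70 tested genes 65 fell and none rose, with a median of -0.52. Rpl32 had 116, 116 and 126.2 CPM in miR124sp mice, against 211, 223 and 176 in GFP mice (-0.73 ± 0.091, adjusted p = 0.00368), and 117, 134 and 119 in the other GFP mice. Rpl27 had 80.5, 76.4 and 86.8 CPM in miR124sp mice, against 141, 132 and 121 in GFP mice (-0.65 ± 0.075, adjusted p = 0.00368). The GFP mice of the miR-124 experiment lay above all 9 other mice in 67 of the 70 genes, beside 14.3% of all tested genes. Against the other GFP mice 0 were higher and 0 lower in the edgeR test, with a median of 0.06. Between 54 and 66 were lower when any 1 of the 6 mice was left out.

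Nuclear genes of oxidative phosphorylation fell in 47 of 69 cases and rose in none (median -0.39), and proteasome genes fell in 14 of 35 cases and rose in none (median -0.26). Ndufa4 had 229.6, 219 and 240.0 CPM in miR124sp mice, against 373, 386 and 328 in GFP mice and 226, 211 and 224 in the other GFP mice (-0.62 ± 0.080, adjusted p = 0.00368). Cox7c (-0.57 ± 0.075) and the proteasome gene Psma3 (-0.45 ± 0.068) moved in the same way, while the genes Atp5b (0.054 ± 0.090, adjusted p = 0.696) and Psmd1 (0.088 ± 0.091, adjusted p = 0.516) did not pass. Against the other GFP mice no gene of oxidative phosphorylation or of the proteasome passed in edgeR. The count of proteasome genes was 4 without GFP mouse 15, 5 without miR124sp mouse 14 and 5 without miR124sp mouse 2.

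Median transcript lengths were 682 bases in the ribosomal list and 651 in that of oxidative phosphorylation, and over all genes the change depended on transcript length. Of 10 equal groups of genes by length, in the one with the shortest RefSeq transcripts, up to 1108 bases, 495 of 1297 (38.2%) were lower and 21 higher, with a median log2 fold change of -0.34. In the longest group, from 6032 bases, 34 were lower and 425 of 1294 (32.8%) higher, with a median of 0.20. Against the GFP mice of the miR-125 experiment the medians were 0.06 and -0.05. Relative to the mean of the 3 GFP mice, the shortest group lay at -0.36, -0.40 and -0.26 in the miR124sp mice and between -0.44 and -0.36 in the 6 mice of the miR-125 experiment, against values between -0.06 and 0.07 in the GFP mice themselves. With an offset for transcript length in the fit, chosen after these medians were seen, 1089 genes (8.40%) were higher and 798 (6.15%) lower, with 21 of the 70 ribosomal genes lower and 1 higher and 12 of the 17 myelin genes higher. With this offset 4 genes of oxidative phosphorylation were lower and 3 higher (median -0.01), and 2 proteasome genes were lower and 2 higher (median -0.02). Of the literature targets 3 were higher and 1 lower, and higher were also 7 axon guidance and 11 protocadherin genes, while 2 microglia genes and 3 genes of ependyma and cilia were lower. Of 21 calcium and sodium channel genes, with a median length of 8287 bases, 8 were higher and 1 lower (median 0.27). The potassium channels had 21 of 39 higher and 1 lower (median 0.34). Of the receptor genes 12 were higher and 2 lower (median 0.10), and of the vesicle release genes 10 and 1 (median 0.20). Whether the trend came from the RNA, the library or the mice was not tested.

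**Figure D5:**
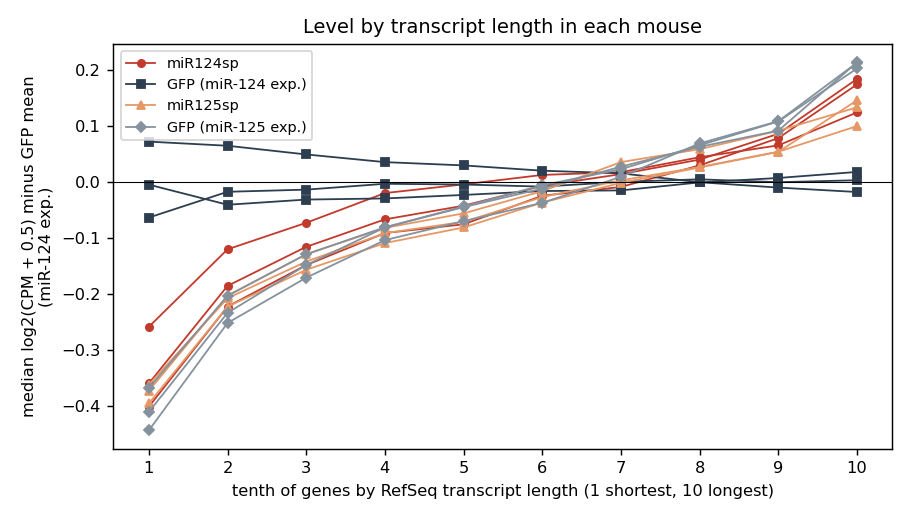
Median log2(CPM + 0.5) minus the mean of the 3 GFP mice of the miR-124 experiment, in 10 equal groups of genes by RefSeq transcript length, 1 line for each of 12 mice. The 9 mice outside that GFP group rise from the shortest to the longest transcripts, and in the shortest group the 3 miR124sp mice lie at -0.36, -0.40 and -0.26 and the 6 mice of the miR-125 experiment between -0.44 and -0.36.

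Astrocyte and microglia genes were lower in miR124sp mice, by amounts that were not seen against the other GFP mice. Of 16 astrocyte genes 8 fell and none rose (median -0.32), and of 14 microglia genes 9 fell and none rose (median -0.24). S100b, a calcium-binding protein of astrocytes, had 179.5, 170.1 and 192 CPM in miR124sp mice, against 281, 319 and 246 in GFP mice and 164, 151 and 159 in the other GFP mice (-0.60 ± 0.098, adjusted p = 0.00489). Mlc1, a membrane protein of astrocyte endfeet, had 295, 285 and 308 CPM in miR124sp mice, against 411, 434 and 367 in GFP mice (-0.41 ± 0.080, adjusted p = 0.00817), and the glutamate transporter Slc1a3 and the enzyme Aldoc changed by -0.43 ± 0.089 and -0.50 ± 0.097. The microglial purine receptor P2ry12 had 70.6, 68.6 and 68.4 CPM in miR124sp mice, against 86.5, 101.2 and 82.7 in GFP mice (-0.34 ± 0.086, adjusted p = 0.0213), and Aif1 changed by -0.57 ± 0.14 (adjusted p = 0.0162). The GFP mice of the miR-124 experiment lay above all 9 other mice in 11 of the 16 astrocyte genes and 7 of the 14 microglia genes. Over all tested genes this share was 14.3%. Against the other GFP mice 0 genes of either list were higher or lower in edgeR. Without miR124sp mouse 2 there was 1 astrocyte gene and 0 microglia genes lower (edgeR), without miR124sp mouse 14 there were 4 and 1, and without GFP mouse 15 there were 5 and 0. Of the genes named, S100b passed with any 1 mouse left out, whereas Aldoc, Slc1a3, Mlc1, Aif1 and P2ry12 did not pass without miR124sp mouse 2 (adjusted p = 0.0533 to 0.0817), Slc1a3, Aif1 and P2ry12 without miR124sp mouse 14 (0.0507 to 0.0572), and Aif1 and P2ry12 without GFP mouse 15 (0.0589 and 0.0524).

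Some markers of hippocampal subfields passed the test within the experiment. Of 11 CA1 genes 5 rose and 2 fell (median 0.43), of 10 CA3 genes none rose and 4 fell (median -0.32), and of 15 dentate granule cell genes 3 rose and 1 fell (median 0.32), beside 12.6% higher and 10.7% lower over all tested genes. Relative to the other GFP mice, 0 CA1 genes were higher and 2 lower (edgeR, median 0.14), 0 CA3 genes were higher and 1 lower (median -0.27), and 0 of 13 dentate genes passed in either direction (median 0.14). Wfs1, an endoplasmic reticulum protein of CA1, had 278, 284 and 239 CPM in miR124sp mice, against 152, 182 and 169 in GFP mice (0.71 ± 0.099, adjusted p = 0.00393). Of the CA3 list, the collagen gene Col6a1 had 30.1, 19.0 and 28.4 CPM in miR124sp mice, against 66.1, 86.4 and 54.1 in GFP mice (-1.37 ± 0.19, adjusted p = 0.00393). Plagl1, an imprinted zinc finger gene, had 29.7, 31.8 and 33.5 CPM in miR124sp mice, against 70.0, 55.7 and 72.2 in GFP mice and 73.0, 85.2 and 74.0 in the other GFP mice, below all 9 (-1.02 ± 0.10 and -1.29 ± 0.086, adjusted p = 0.00368 and 0.000977). In the dentate list Calb1, a calcium buffer, changed by -0.57 ± 0.14 (adjusted p = 0.0169) and C1ql2, a synaptic adhesion protein, by 0.62 ± 0.18 (adjusted p = 0.0335). Calb1 did not pass without miR124sp mouse 2 (0.0712), and C1ql2 did not without miR124sp mouse 2 (0.106), GFP mouse 15 (0.127) or GFP mouse 20 (0.107). Without miR124sp mouse 9, 8 of the 10 CA3 genes were lower. Without miR124sp mouse 2 there were 3 CA1 genes higher, and the number of dentate genes higher was 1 without GFP mouse 15 and 6 without GFP mouse 8.

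Another 3 lists, of neighbouring tissue, were written after the leading genes had been seen, and they are given as values. Of 23 genes of the neocortex, retrosplenial cortex and subiculum 16 were higher and 1 lower (median 1.04), of 14 hypothalamic genes 9 were lower (median -1.36), and of 23 genes of ependyma and motile cilia 6 were lower (median -1.06). Tbr1, a transcription factor of cortical projection neurons, had 195, 195 and 119 CPM in miR124sp mice, against 71.8, 84.7 and 74.6 in GFP mice and 115, 128 and 111 in the other GFP mice. Slc17a6, the vesicular glutamate transporter of subcortical and retrosplenial neurons, had 109.9, 115 and 41.2 CPM in miR124sp mice, against 28.4, 14.7 and 29.9 in GFP mice and 33.0, 38.5 and 44.7 in the other GFP mice. Lamp5, a gene of upper cortical layers and of some interneurons, had 150.0, 134 and 77.4 CPM in miR124sp mice, above all 9 other mice, against 58.8, 50.2 and 61.0 in GFP mice (1.130, and 1.14 with adjusted p = 0.0471 against the other GFP mice). Of the hypothalamic genes, Hap1, a huntingtin-associated protein, had 11.1, 13.3 and 18.8 CPM in miR124sp mice, against 30.0, 27.7 and 35.0 in GFP mice (-1.07 ± 0.17), Ngb, the neuronal globin, had 2.86, 2.84 and 4.71 CPM in miR124sp mice, against 14.8, 7.27 and 14.5 in GFP mice (-1.79 ± 0.29), and the gene of the cortical list that was lower was Crym, a thyroid hormone-binding protein (-0.77 ± 0.18), which the list of meninges and fibroblasts also holds. Crym did not pass without miR124sp mouse 14, miR124sp mouse 2 or GFP mouse 15 (edgeR adjusted p = 0.0510 to 0.0735). Relative to the other GFP mice, 2 of the 23 cortical genes were higher (median 0.55), 1 of 12 hypothalamic genes was lower (median -0.64), and 0 of the 23 genes of ependyma and cilia passed in edgeR (median -0.63). The 6 genes of ependyma and cilia became 0 without GFP mouse 15, 0 without miR124sp mouse 14, 0 without miR124sp mouse 2, 3 without GFP mouse 8 and 20 without miR124sp mouse 9 (edgeR). In Tbr1, Slc17a6 and Lamp5 the miR124sp mice 14 and 2 were high and mouse 9 was nearer to the GFP mice.

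The choroid plexus, which lies against the hippocampus, varied between mice of the same group. Ttr, its most abundant transcript, had 25.2, 39.1 and 2169 CPM in miR124sp mice, against 4133, 77.7 and 1711 CPM in GFP mice. Of 13 choroid plexus genes 0 passed in either direction (edgeR, median -1.10), and without miR124sp mouse 9 there were 10 that were lower. Of 15 genes in the list of meninges and fibroblasts none rose and 4 fell (median -0.40). One of the 4 was Crym, which the cortical list also holds, so that it does not mark meninges alone. Also among the 4 were Ptgds, with 258, 368 and 246 CPM in miR124sp mice, against 515, 443 and 397 in GFP mice, and Aldh1a2 (-0.79 ± 0.21, edgeR adjusted p = 0.0238). There was 1 of the 15 lower without GFP mouse 15 or miR124sp mouse 14, and without GFP mouse 20 there were 2, and Ptgds and Aldh1a2 did not pass in these cases (adjusted p = 0.0584 to 0.106), nor Aldh1a2 without GFP mouse 8 (0.0588). Against the other GFP mice 8 of the 15 were lower, with a median of -1.127. The part that differences in dissection had in the cortical, hypothalamic, ciliary, choroid plexus and meningeal genes was not tested.

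The effect of the miR-124 sponge was also compared with that of the miR-125 sponge, each against its own GFP mice, in a fit over 12 mice with an interaction term. Of 13264 genes, 981 (7.40%) had a higher and 936 (7.06%) a lower effect with miR124sp than with miR125sp. The miR-125 sponge alone gave 7 genes higher (0.0554% of 12634) and 19 lower (0.150%). The interaction includes any difference between the GFP groups of the experiments. Among the literature targets of miR-124 the effects differed for 8 of 33 genes, all higher with miR124sp, among them Nr4a1 (difference 0.96, adjusted p = 0.0162) and Rhog (0.56, adjusted p = 0.0358). In 11 of the 17 myelin genes the effect was higher with miR124sp, such as Mag (0.96, adjusted p = 0.00670), and in 67 of the 70 ribosomal genes it was lower.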

How the data were processed

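Poly-A RNA of whole hippocampi was sequenced with single reads of 50 bases, 1 library per mouse, with 3 mice for each of miR124sp and GFP. The authors aligned the reads (STAR is listed in the submitters' processing notes) and deposited raw counts per RefSeq transcript, and for the AGO2 immunoprecipitation raw counts per 3′UTR. The genome is mm9 in the study's methods and mm10 in the processing notes, and the counting program and its strand setting are not given in the sources used here. Transcript counts were summed per gene symbol. Of 32850 rows, 98.7% matched a symbol of the RefSeq table (GRCm38.p6, used for names only), and the rest held 1.01% of the counts. In genes with several transcripts the median count was 19, against 318.5 in genes with 1, and Gapdh had 19 counts over the 6 mice, so that levels of such genes are uncertain.

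Genes were filtered with filterByExpr, scaled by TMM and tested with edgeR 4.0.16 (R 4.3.3, quasi-likelihood, miR124sp over GFP, no covariate), with Benjamini-Hochberg adjustment over all tested genes at 0.05. A fit over 12 mice gave the interaction with the miR-125 experiment. Alternatives were DESeq2 1.42.0, its size factors, other filters, single transcripts, other GFP mice, single libraries left out and, added after values were seen, an offset for transcript length and the count of genes outside all 9 other mice. The edgeR step was also run on simulated counts with known fold changes, and the outcome is not given here. The 3 mice of a group are separate animals. Pairs of replicates differed by more than counting noise (chi-square per gene of 8.11 to 20.8 in miR124sp and 32.3 to 166 in GFP).

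Seed matches were searched in the longest 3′UTR per gene of GENCODE M1 (NCBIM37). The mature miR-124 sequence is not printed. In the RIP-seq, counts of each library were divided by their mean over the 101 3′UTRs around Gapdh in the order of enrichment. Enrichment was the ratio of these values over sham, for 3′UTRs with at least 10 counts in every RIP library. The edgeR test of the RIP-seq used TMM instead. Named genes include the 12 largest called changes in each direction with a mean of at least 1 CPM and no overlap in CPM between the groups. Also named are up to 4 called genes and 2 abundant genes of each list, the literature targets, and called members of the 300 falls in AGO2 rank. A few genes that this rule takes in are counted in their lists but are not reported here by name. Members and lists were chosen with earlier results of these data known. Small nucleolar RNAs, protocadherin isoforms and genes with several transcripts may share reads with others.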

Additional observations from a re-analysis of the deposited data

Results flagged for a closer look

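The effect of the miR-124 sponge was set against that of the miR-125 sponge, each over its own GFP mice. By the interaction term 1917 genes differed between the experiments (edgeR, adjusted p below 0.05), with 7.40% of 13264 genes higher and 7.06% lower. Of the 118 genes named here 77 were among them. Most named genes were chosen for passing miR124sp against GFP, which is part of the interaction, so that this count is no separate result. The values that follow are the miR124sp effect minus the miR125sp effect on the log2 scale, and each includes any difference between the GFP groups of the experiments, whose part was not tested. Among the genes with the largest increases the difference was 2.20 for Syt2, 1.98 for Scn4b, 1.95 for Sowahb, 1.92 for Wnt10a, 1.72 for Ankrd34c and 1.43 for Tshz2. Among the genes with the largest decreases the difference was -4.54 for Trh, -3.51 for Dio3, -3.95 for Snord68, -3.69 for Snord49a, -2.63 for Dcn, -2.11 for Baiap3, -2.39 for Arhgap36 and -1.74 for Adamts14. Among the literature targets of miR-124 the difference was 0.96 for Nr4a1, 0.86 for Egr1, 0.56 for Rhog, 0.41 for Rock2, 0.44 for Gsk3b, 0.45 for Sos1, 0.57 for Lamc1 and 0.38 for Sp1. Among genes of the AGO2 list the difference was 0.81 for Gpr37, 0.59 for Slc44a1, 1.20 for Kcnab3, -0.62 for Ciao2a, -0.62 for Gap43 and 0.30 for Ago1. Among the immediate early genes the difference was 0.89 for Ier5, 0.74 for Fos and 0.69 for Arl4d.

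Among channels and receptors the difference was 1.42 for Kcnh7, 0.74 for Kcna1, 0.34 for Kcnc2, 0.58 for Kcnj4, 0.83 for Scn1a, -0.82 for Gabrg1, 1.05 for Grm2, 0.77 for Grin2a and 0.37 for Grin1. Among genes of synapses, axons and interneurons the difference was 0.64 for Sv2a, 1.19 for Syn3, 0.55 for Sema7a, 1.05 for Unc5b, 1.14 for Sema3f, 0.81 for Sema6a, 0.80 for Nefh, 0.65 for Nefm and 0.77 for Pcdhga2. It was 0.69 for Pcdhga9, 0.98 for Reln and 0.57 for Gad1. Among glial genes the difference was 0.91 for Cnp, 0.96 for Mag, 0.81 for Cldn11, 0.71 for Ugt8a, -0.66 for S100b, -0.55 for Aldoc, -0.38 for Slc1a3, -0.42 for Mlc1 and -0.40 for P2ry12.

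Among ribosomal, respiratory chain and proteasome genes the difference was -0.83 for Rpl32, -0.71 for Rpl27, -0.75 for Ndufa4, -0.71 for Cox7c and -0.48 for Psma3. Among genes of subfields and neighbouring regions the difference was -0.72 for Plagl1, -1.15 for Col6a1, -0.66 for Calb1, 1.07 for Tbr1, 1.73 for Slc17a6, -1.80 for Ngb, -1.25 for Hap1 and -0.97 for Crym. Among other genes the difference was 0.39 for Dicer1, 0.45 for Tnrc6c and -0.92 for Zfp423. The adjusted p-values of these genes lay between 0.000996 and 0.0498 in the edgeR test.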

How the results depend on the processing

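The counts of 1628 higher and 1388 lower genes stayed within 1.5 times under DESeq2, its size factors, other filters, 12 mice in 1 fit, single transcripts and genes with 1 transcript only (1503 to 2129 higher and 1260 to 2062 lower). With the GFP mice of the miR-125 experiment as controls they were 114 and 150, with the 6 GFP mice of both experiments 198 and 65, and with the offset for transcript length 1089 and 798. Leaving out 1 mouse gave 474 to 2011 higher and 519 to 2015 lower genes, lowest without GFP mouse 15 or miR124sp mouse 2. The number of genes that differed from the miR-125 experiment, 1917, was 1144 to 2955 with 1 mouse left out, with 1144 without miR125sp mouse 9, 1155 without GFP mouse 15, 1193 and 1245 without miR124sp mice 2 and 14, and 2955 without miR124sp mouse 9. The difference for seed matches was 0.067 without bins of 3′UTR length, 0.023 against the other GFP mice and between -0.018 and 0.013 with 1 mouse left out, highest without GFP mouse 20. The difference for the list of AGO2 falls, 0.041, was 0.044 with DESeq2, 0.031 with the only miR124sp library whose header carries a mark of unknown meaning (mouse 14 alone, taken to vary like the GFP mice), -0.024 against the other GFP mice, 0.050 with all 3′UTRs that left the top ranks, 0.071 with 3′UTRs lower in edgeR and 0.022 to 0.037 with 1 mouse left out. The causes were not tested.

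Of the 118 genes named, 104 passed the test, and 71 of these passed with any 1 mouse left out, 98 with every other tool and filter, and 18 of 100 compared passed in the same direction against the other GFP mice. Against those mice the direction turned for Nr4a1 (-0.20), Egr1 (-0.31), Rock2 (-0.040), Gsk3b (-0.043), Sos1 (-0.045), Lamc1 (-0.19), Ago1 (-0.011), Dusp1 (-0.17), Fos (-1.21), Junb (-0.26), Kcnc2 (-0.061), Grin2a (-0.17), Reln (-0.033), Dicer1 (-0.054) and Tnrc6c (-0.14). It also turned for S100b (0.18), Aldoc (0.053), Slc1a3 (0.0069), Mlc1 (0.12), Aif1 (0.040), P2ry12 (0.10), Ndufa4 (0.052), Cox7c (0.079) and Psma3 (0.038). With the 6 GFP mice of both experiments, Fos was at -0.50.

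No paired analysis was possible because the miR124sp and GFP mice share no replicate number. With 3 mice in each group, 1 hippocampal dissection per library and GFP mice that stand apart from 9 other mice, an effect of the sponge cannot be told apart from a difference of that GFP group, and the values against the other GFP mice come from another experiment and share the miR124sp mice. Depth limits genes under about 1 CPM.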

Other observations

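Of 19 genes of the miRNA pathway 6 were higher in miR124sp mice and none lower, with a median log2 fold change of 0.16, among them Dicer1, which cuts miRNA precursors, with 114, 113 and 102 CPM in miR124sp mice, against 92.3, 96.4 and 93.1 in GFP mice (0.27 ± 0.071, edgeR adjusted p = 0.0264), and the silencing factor Tnrc6c (0.33 ± 0.070, adjusted p = 0.0115). Against the GFP mice of the miR-125 experiment none of the 19 passed in edgeR, with a median of -0.05, and with the offset for transcript length 0 passed, with a median of 0.01. The 6 became 1 without GFP mouse 15, 2 without miR124sp mouse 14 and 1 without miR124sp mouse 2, where neither Dicer1 (adjusted p = 0.113 to 0.132) nor Tnrc6c (0.0540 to 0.0680) passed, and Dicer1 did not pass without GFP mouse 8 (0.0708). Of 14 circadian clock genes 3 were higher and none lower. Dbp, an output gene of the clock, had 60.2, 74.2 and 55.9 CPM in miR124sp mice, against 50.9, 49.8 and 46.1 in GFP mice and 26.5, 38.5 and 30.6 in the other GFP mice, above all 9 other mice, and passed against both (0.42 and 0.99, adjusted p = 0.0231 and 0.0229), but within the experiment it passed only when miR124sp mouse 9 was the mouse left out (adjusted p = 0.0510 to 0.0824 without each of the others, with a change of 0.28 without miR124sp mouse 2). Its relative Hlf had 561, 599 and 307 CPM in miR124sp mice, against 232, 282 and 245 in GFP mice (0.99 ± 0.22), and Bhlhe40 changed by 0.63 ± 0.15. The 3 clock genes became 0 without GFP mouse 15, 0 without miR124sp mouse 2, 1 without miR124sp mouse 14 and 5 without miR124sp mouse 9 (edgeR). Hlf did not pass without miR124sp mouse 2 or GFP mouse 15 (0.0577 and 0.0633), nor Bhlhe40 without those or miR124sp mouse 14 (0.0600 to 0.0756).

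Vgf, a neuropeptide precursor induced by activity, had 276, 239 and 247 CPM in miR124sp mice, against 156, 146 and 191 in GFP mice (0.67 ± 0.11, adjusted p = 0.00485), and was 1 of 6 higher genes among 27 neuropeptides and growth factors, which became 3 without GFP mouse 15 or miR124sp mouse 2. Phlda3, a p53 target, had 31.4, 27.2 and 25.4 CPM in miR124sp mice, against 20.9, 18.4 and 19.5 in GFP mice and 20.6, 15.4 and 17.8 in the other GFP mice (0.56 and 0.64, adjusted p = 0.00600 and 0.0388), while of 17 genes of the p53 response 2 were higher and 1 lower. Of 285 zinc finger genes with symbols of the Zfp type 24 were higher and 22 lower (median 0.01), beside 12.6% and 10.7% of all tested genes. Without GFP mouse 15 there were 1 higher and 5 lower, without miR124sp mouse 2 there were 1 and 6, and without miR124sp mouse 14 there were 4 and 9, while with the offset for transcript length there were 6 and 24. Of this family Zfp423 was at 21.7, 20.4 and 29.7 CPM in miR124sp mice, against 52.1, 45.1 and 52.9 in GFP mice and 38.6, 33.0 and 38.4 in the other GFP mice (-1.03 and -0.63, adjusted p = 0.00368 and 0.0495). Reactive gliosis genes (0 higher and 2 lower of 16 in edgeR, median -0.06) and genes of the unfolded protein response (2 higher and none lower of 22, median 0.03) differed little. The host gene Mir124a-1hg had 160.1, 98.6 and 115 CPM in miR124sp mice, against 141, 226 and 118 in GFP mice (-0.34 ± 0.24, adjusted p = 0.328).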
